A study of Canis lupus familiaris with 45 samples.

Results

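Left ventricular gene expression after 3 days of rapid pacing was compared with that of unpaced dogs. The arrays were chosen by their labels: 9 Day-3 arrays and 9 Day-0 arrays, 18 of the 45 arrays of the series. Day-3 dogs carried a pacemaker, implanted through the chest wall with its lead on the right ventricle, and were paced at 240 beats per minute for 3 days, starting soon after surgery. Day-0 dogs were unpaced controls, and the labels do not say whether they had surgery. All dogs were male and matched for age. Each group held 3 dogs. RNA was isolated 3 times from the left ventricular tissue of each dog, through the full thickness of the wall, and 1 array was run for each isolation. The isolations are technical, so the dog was the replicate. The 3 later paced groups, Week-1, Week-2 and End-stage, also held 3 dogs each and were paced at the same rate. They served to see where Day-3 stood apart from longer pacing. They also entered the filter on signal and the shared estimate of the spread between dogs.

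Rapid pacing of the ventricle is a classic model of dilated, low-output heart failure. The healthy ventricle takes most of its energy from fatty acids oxidised in mitochondria. Failing hearts are known for lower mitochondrial and fatty acid oxidation gene expression, for the return of fetal sarcomere isoforms, for remodelling of the extracellular matrix, and for altered calcium handling in the sarcoplasmic reticulum.

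Levels are given as log2 of the deposited signal, averaged over the 3 arrays of a dog, and a difference of 1 on this scale is 2-fold. Between dogs the standard deviation of a probe set was 0.170 at the median, and between isolations of 1 dog it was 0.307. The median standard error of a Day-3 minus Day-0 difference was 0.219, so the 95% interval of a typical probe set reached 0.468 to either side. Each of the 18 arrays resembled another array of its own dog most closely. The cardiomyocyte markers matched the labelled tissue, since MYH7, the slow myosin heavy chain of the ventricle, had log2 levels of 13.20, 13.71 and 13.63 in Day-3 dogs 1 to 3, against 13.24, 13.80 and 13.78 in Day-0 dogs. For 8 of 9 cardiomyocyte markers the dog numbered 1 had the lowest level in all 5 groups, a difference between dog numbers that both groups share. Signs of RNA quality did not separate the groups: the 3′ to 5′ signal ratio of GAPDH averaged -0.08 ± 0.11 in Day-3 dogs and -0.05 ± 0.04 in Day-0 dogs on the log2 scale (SD, n = 3 each), with a two-sided exact permutation p of 0.7, where 0.1 is the smallest that 3 against 3 dogs allow.

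No probe set passed the threshold after adjustment. Of 14301 probe sets tested with limma, 0 had an adjusted p under 0.05, and the smallest adjusted p was 0.145. At an unadjusted p under 0.05, 532 probe sets were higher in Day-3 dogs (3.72%) and 622 were lower (4.35%), 8.07% in all. All 3 Day-3 dogs lay above all 3 Day-0 dogs in 881 probe sets (6.16%) and below them in 921 (6.44%), 12.6% together. After centring each array on its median, the unadjusted counts were 342 higher and 713 lower. A fit to the 45 single arrays, with dog entered as a random effect, called 102 higher and 171 lower after adjustment. It takes the same correlation between isolations of a dog, 0.292, for every probe set. With 1 dog left out, 10 higher and 13 lower probe sets passed without Day-3 dog 1, 2 lower ones without Day-3 dog 2 and 1 lower one without Day-0 dog 2. The differences below are therefore measured values with their errors, and none is a call. Day-3 dog 2 lay farthest from the Day-0 mean in 663 of the 1154 probe sets with an unadjusted p under 0.05 (57.5%), against 237 for dog 1 and 254 for dog 3.

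Among the annotated genes, the largest positive difference was in MYL1, the alkali light chain of fast skeletal muscle myosin (probe set 1583404_at). Its log2 level was 7.15, 10.81 and 7.08 in Day-3 dogs 1 to 3, against 4.92, 4.31 and 4.98 in Day-0 dogs. All Day-3 dogs were above all Day-0 dogs, and dog 2 was far above the others of its group. The difference was 3.61 ± 0.79 (SE), 12.2-fold, with an unadjusted limma p of 0.00037 and an adjusted p of 0.246. The Day-0 levels of MYL1 lay near the lowest level tested, a signal of 22.8, so the size of this fold change is uncertain. LOC607080, named only by its locus number, had a like pattern with 7.43, 10.41 and 8.74 in Day-3 dogs, against 6.68, 6.16 and 7.02 in Day-0 dogs, a difference of 2.24 ± 0.55 (SE). TNNT1, the slow skeletal troponin T, also had its highest level in Day-3 dog 2: 8.41, 11.08 and 9.49 in Day-3 dogs, against 8.56, 7.98 and 7.95 in Day-0 dogs. Here the groups overlapped, because Day-3 dog 1 lay within the Day-0 range, and the difference was 1.50 ± 0.49 (SE, unadjusted limma p 0.00823).

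Other skeletal muscle genes were looked up after these values were seen, as a description. Of 26 such genes listed, 16 were on the array and 6 reached the level needed for testing, with 7 probe sets. Of these, only MYL1 had all Day-3 dogs above all Day-0 dogs. MYLPF, the regulatory light chain of fast skeletal muscle, had log2 levels of 5.18, 5.61 and 4.79 in Day-3 dogs, against 4.98, 5.41 and 5.15 in Day-0 dogs. Both tested probe sets of ATP2A1, the calcium pump of fast skeletal muscle, were lower in all Day-3 dogs than in all Day-0 dogs. The brighter had 5.83, 6.12 and 5.91 in Day-3 dogs, against 6.19, 6.23 and 6.28 in Day-0 dogs. The dimmer lay near the lowest level tested. Another ATP2A1 probe set, too dim for testing, differed by -0.09, with overlapping dogs. The probe sets of the fast myosin heavy chains MYH1, MYH2 and MYH4 and of the fast troponins TNNT3, TNNI2 and TNNC2 were below the level needed for testing. Beside MYL1 and TNNT1, the 5 other tested probe sets of the skeletal genes differed by -0.57 to 0.14.

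**Figure D1:**
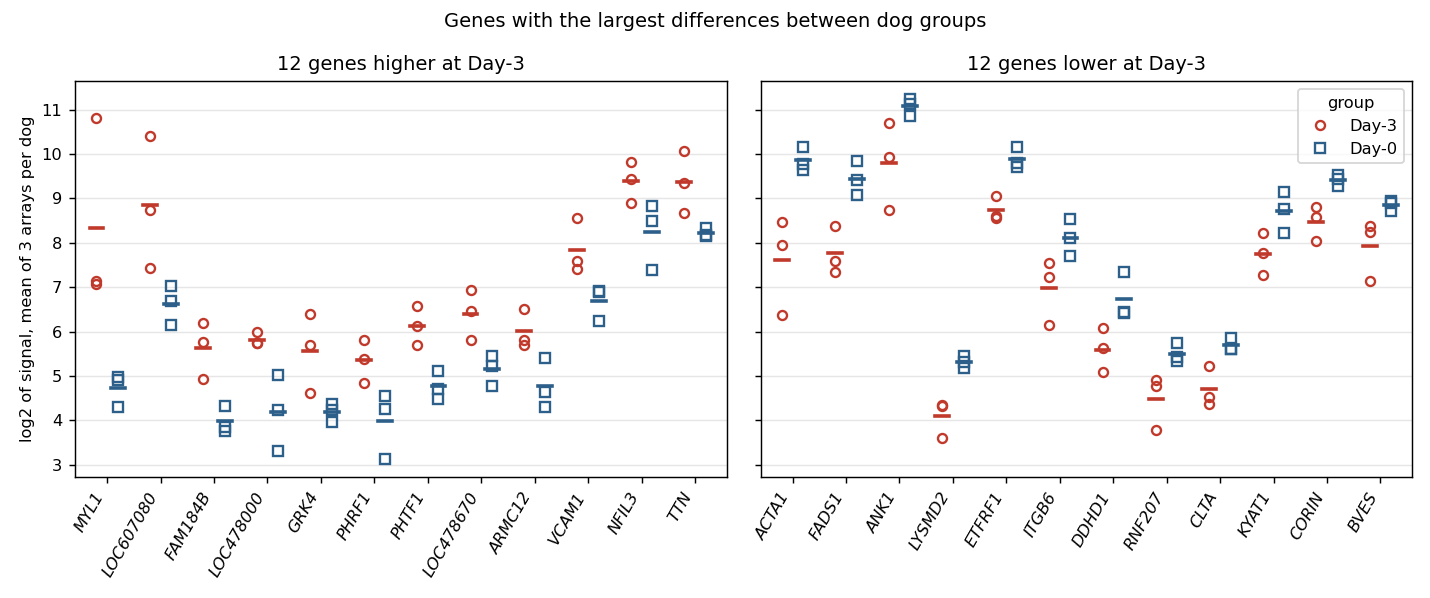
Log2 of signal (vertical axis) of the 12 genes with the largest positive and the 12 with the largest negative differences among genes whose dogs did not overlap and whose unadjusted limma p was under 0.01. Circles are the 3 Day-3 dogs, squares the 3 Day-0 dogs and bars the group means; in MYL1, Day-3 dog 2 stands at 10.81, above all other dogs.

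The other genes among the 12 largest positive differences ranged from 1.15 to 1.65. VCAM1, the endothelial adhesion molecule that holds leukocytes, had log2 levels of 7.58, 8.56 and 7.40 in Day-3 dogs, against 6.92, 6.89 and 6.25 in Day-0 dogs (difference 1.16 ± 0.37, SE, 2.24-fold). NFIL3, a transcriptional repressor of the clock and of immune cells, had 8.90, 9.83 and 9.43 in Day-3 dogs, against 8.48, 7.38 and 8.84 in Day-0 dogs (difference 1.15 ± 0.33, SE). In NFIL3 the lowest Day-3 dog lay only just above the highest Day-0 dog, and in VCAM1 the gap was wider. GRK4, a G protein-coupled receptor kinase, PHRF1, a ubiquitin ligase, and FAM184B, PHTF1, ARMC12, LOC478000 and LOC478670 had Day-0 means between 3.98 and 5.15. These lay below or near the lowest level tested, a signal of 22.8. That level was set on the mean over all 15 dogs, so probe sets dim at Day-0 could pass through higher paced dogs. The part of this filter in their differences was not tested. FAM184B was higher in each of its 3 probe sets, whereas other probe sets of PHRF1 and LOC478000 differed by -0.25 and 0.06. The other tested probe set of GRK4 differed by 0.24, with overlapping dogs. Those of LOC478670 differed by -0.02 to 0.84. 1 probe set of TTN, the giant elastic protein of the sarcomere, was higher by 1.15 ± 0.34 (SE). Of the 17 tested TTN probe sets 15 lay above 0, and in 4 all Day-3 dogs were above all Day-0 dogs. The brightest differed by -0.08, with overlapping dogs.

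The largest negative difference was in ACTA1, the skeletal alpha-actin that the fetal heart also makes (probe set 1605145_at). Its log2 level was 8.47, 6.39 and 7.96 in Day-3 dogs, against 9.78, 10.15 and 9.65 in Day-0 dogs. The groups were far apart, with Day-3 dog 2 lowest, and the difference was -2.26 ± 0.37 (SE), 4.78-fold, with an unadjusted limma p of 1.94e-05 and an adjusted p of 0.145. The other ACTA1 probe sets did not follow: they differed by 0.07, 0.07 and -0.33, with overlapping dogs, so that the gene's direction depends on the probe set.

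Several genes of lipid and energy metabolism and of the cardiomyocyte membrane were among the 12 largest negative differences. FADS1, a fatty acid desaturase, had log2 levels of 8.37, 7.59 and 7.34 in Day-3 dogs, against 9.85, 9.07 and 9.41 in Day-0 dogs, a difference of -1.67 ± 0.42 (SE), and its other 3 probe sets differed by -0.59, -0.38 and -0.97. ETFRF1, a mitochondrial protein that regulates the electron transfer flavoprotein of fatty acid oxidation, had 9.05, 8.55 and 8.60 in Day-3 dogs, against 10.16, 9.80 and 9.71 in Day-0 dogs (difference -1.15 ± 0.19, SE, adjusted limma p 0.145), and its second probe set differed by -0.73. In both genes the highest Day-3 dog stayed well below the lowest Day-0 dog. CORIN, the cardiac protease that activates atrial natriuretic peptide, had 8.59, 8.04 and 8.81 in Day-3 dogs, against 9.53, 9.29 and 9.44 in Day-0 dogs (difference -0.94 ± 0.25, SE). BVES, a Popeye-domain protein of the heart muscle membrane that binds cyclic AMP, had 8.38, 7.14 and 8.25 in Day-3 dogs, against 8.90, 8.94 and 8.71 in Day-0 dogs (difference -0.93 ± 0.25, SE). ANK1, an ankyrin that anchors membrane proteins to the cytoskeleton, ranged widely among the Day-3 dogs, with 10.69, 8.74 and 9.95, against 10.86, 11.13 and 11.24 in Day-0 dogs. Day-3 dog 1 lay just under the Day-0 range, and dog 2 far under it.

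The rest of these 12 genes differed by -0.96 to -1.21: LYSMD2, the integrin subunit gene ITGB6, the phospholipase gene DDHD1, the RING finger gene RNF207, the clathrin light chain gene CLTA and KYAT1, which encodes an aminotransferase of kynurenine. The probe sets of KYAT1 differed by -0.92 and -0.96. For CLTA the difference of -0.98 came from a dim probe set, and the brightest differed by only -0.19. By this rule, 76 probe sets were eligible on the higher side and 107 on the lower side.

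Genes of mitochondrial energy production lay below the Day-0 level as a group. Each gene was represented by its brightest tested probe set. Over all 5278 genes the median difference was 0.00 and 50.6% of genes were above 0. At an unadjusted p under 0.05, 4.6% of genes were higher and 5.0% were lower, 9.61% in all. The groups did not overlap in 7.07% of genes on the higher side and 7.35% on the lower side. In all 28 tested genes of Complex I, which passes electrons from NADH into the respiratory chain, Day-3 was below Day-0. The median difference was -0.28, 12 had an unadjusted limma p under 0.05, all lower, and none passed after adjustment over all probe sets. NDUFB5 had log2 levels of 11.02, 10.87 and 11.11 in Day-3 dogs, against 11.40, 11.45 and 11.47 in Day-0 dogs (difference -0.44 ± 0.12, SE). NDUFS3 had 11.78, 11.80 and 11.84 in Day-3 dogs, against 12.12, 12.29 and 12.17 in Day-0 dogs (difference -0.39 ± 0.11, SE). These differences are small, about 1.3-fold, but the dogs of each group lay close together. The count of 12 was 6 without Day-0 dog 2 and 7 without Day-0 dog 3, while all 28 genes stayed below 0 whichever dog was left out.

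In the remaining chain and the citric acid cycle most genes were also lower. Per-dog list means, relative to the Day-0 mean, did not overlap between the groups for Complex I and the citric acid cycle. They overlapped for complexes II, III and IV, with Day-3 dog 2 at -0.16 and Day-0 dog 1 at -0.19. For ATP synthase they were -0.30, -0.04 and -0.08 in Day-3 dogs and -0.26, 0.15 and 0.11 in Day-0 dogs. In the list of complexes II, III and IV and cytochrome c, 12 of 14 genes were lower, with a median of -0.25, and 5 had an unadjusted p under 0.05. CYCS, cytochrome c, had log2 levels of 12.12, 12.32 and 12.32 in Day-3 dogs, against 12.53, 12.72 and 12.91 in Day-0 dogs. Of 8 ATP synthase subunits 7 were lower, with a median of -0.16, which ranged from -0.28 without Day-0 dog 1 to -0.07 without Day-3 dog 1 over the 6 left-out dogs, and 0 had an unadjusted limma p under 0.05. Of 24 genes of the citric acid cycle and pyruvate dehydrogenase, 23 were lower, with a median of -0.28, and 9 had an unadjusted p under 0.05. IDH3A, the catalytic subunit of the cycle's NAD-dependent isocitrate dehydrogenase, had 10.88, 10.61 and 10.72 in Day-3 dogs, against 11.22, 11.53 and 11.58 in Day-0 dogs (difference -0.71 ± 0.13, SE, unadjusted limma p 7.65e-05). IDH3B, its partner subunit, had 11.66, 11.57 and 11.77 in Day-3 dogs, against 11.96, 12.22 and 12.15 in Day-0 dogs. In neither subunit did the groups overlap. The count of 9 in this list was 4 without Day-0 dog 2, 3 without Day-0 dog 3 and 5 without Day-3 dog 2. For complexes II, III and IV the count of 5 was 2 without any 1 of these same dogs, 3 without Day-3 dog 1 and 8 without Day-0 dog 1.

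In fatty acid uptake and oxidation 21 of 26 genes were lower, with a median of -0.22, and 6 had an unadjusted p under 0.05, all lower. ACSL1, which joins fatty acids to coenzyme A, had log2 levels of 10.77, 10.61 and 11.05 in Day-3 dogs, against 11.42, 11.53 and 11.58 in Day-0 dogs (difference -0.70 ± 0.16, SE, 1.63-fold). ETFDH, which hands electrons from fatty acid oxidation to the chain, had 11.04, 10.69 and 10.82 in Day-3 dogs, against 11.25, 11.56 and 11.62 in Day-0 dogs (difference -0.63 ± 0.16, SE). ACAT1, the mitochondrial thiolase of ketone body breakdown, and MLYCD, the enzyme that degrades malonyl-CoA, differed by -0.57 and -0.58, and in all 4 genes the groups did not overlap. Not all of the list went this way: LPL, lipoprotein lipase, had 8.58, 10.43 and 10.51 in Day-3 dogs, against 8.52, 9.74 and 8.51 in Day-0 dogs. Its groups overlapped, with an unadjusted limma p of 0.0835. The difference of LPL was 0.91, and another gene of the list had a larger positive difference. Per-dog means of this list, relative to the Day-0 mean, were -0.20, -0.25 and 0.06 in Day-3 dogs. In Day-0 dogs they were -0.02, -0.03 and 0.04. The list means therefore overlapped, with Day-3 dog 3 above all Day-0 dogs and the other Day-3 dogs below them.

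Of 48 mitochondrial ribosomal protein genes 35 were lower, with a median of -0.12, and 9 had an unadjusted p under 0.05, all lower. MRPS35 had log2 levels of 7.85, 7.52 and 7.80 in Day-3 dogs, against 8.42, 8.44 and 8.33 in Day-0 dogs. The median was -0.07 without Day-0 dog 3. Of 59 cytosolic ribosomal protein genes 32 were lower and 27 higher, with a median of -0.02, and 0 had an unadjusted limma p under 0.05. That balance depended on single dogs, since 55 of the 59 lay above 0 without Day-3 dog 1 and 14 without Day-3 dog 2. Glycolysis had no common direction, with 9 of 20 genes higher and 11 lower. PGK1, phosphoglycerate kinase, had 11.51, 11.30 and 11.43 in Day-3 dogs, against 11.79, 11.81 and 11.77 in Day-0 dogs. ALDOC, an aldolase, was higher by 0.86 ± 0.30 (SE), and PYGM, muscle glycogen phosphorylase, differed by -0.72 ± 0.28 (SE).

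The regulators of mitochondrial biogenesis gave small differences. PPARGC1A, the coactivator PGC-1alpha, had log2 levels of 7.99, 7.28 and 7.69 in Day-3 dogs, against 7.86, 7.64 and 7.97 in Day-0 dogs, with overlapping groups. TFB2M, a mitochondrial transcription factor, differed by -0.46 ± 0.14 (SE), and UCP2, an uncoupling protein, was higher by 0.53 ± 0.21 (SE). The 9 cardiomyocyte markers all lay slightly below 0, with a median of -0.10. Their per-dog means, relative to the Day-0 mean, were -0.40, 0.00 and -0.03 in Day-3 dogs and -0.36, 0.18 and 0.18 in Day-0 dogs. The direction turned with 1 dog: the median was 0.05, with 6 of 9 above 0, without Day-3 dog 1, and 5 of 9 were above 0 without Day-0 dog 2. In whole tissue, fewer cells of a type and less RNA per cell cannot be told apart, and the part of these markers in the energy lists was not tested.

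**Figure D2:**
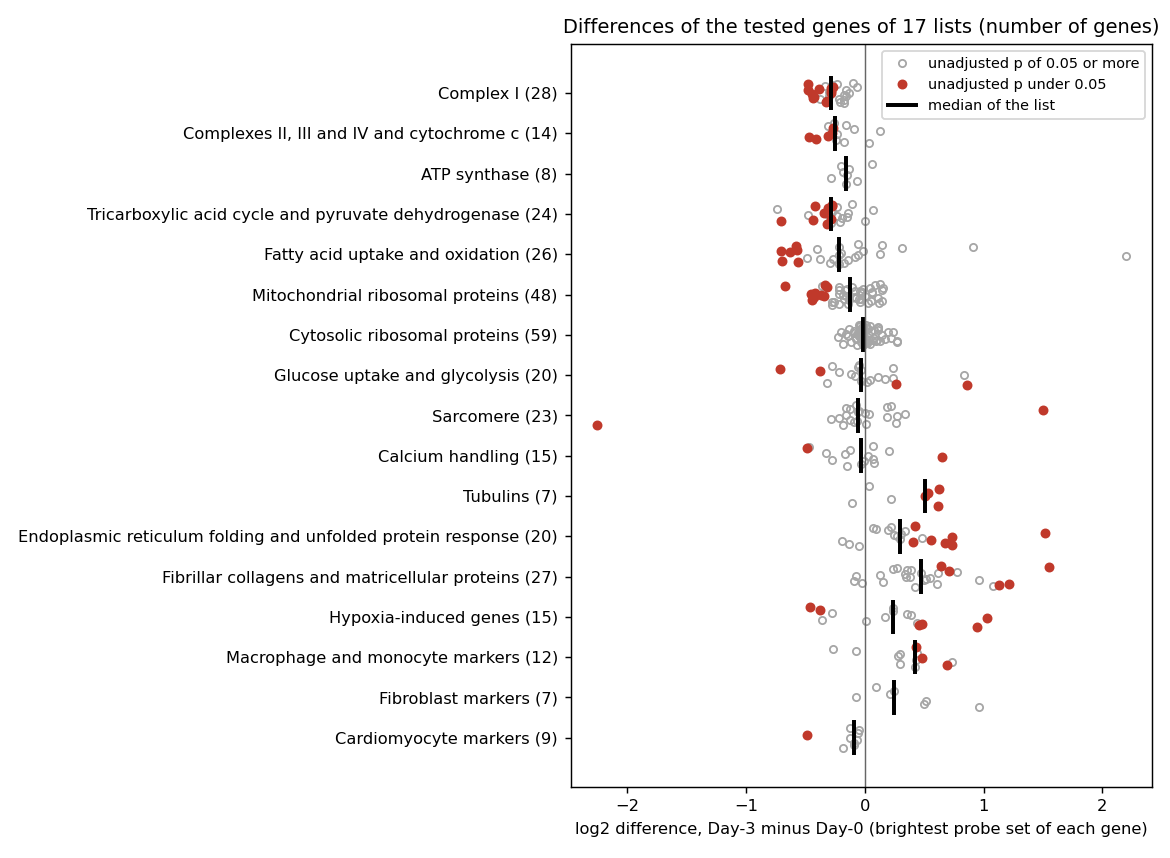
Log2 difference, Day-3 minus Day-0 (horizontal axis), of each tested gene in 17 gene lists, with the number of genes in brackets. Filled points have an unadjusted limma p under 0.05 and vertical bars are list medians; all 28 Complex I genes lie left of 0, and most tubulin, folding and matrix genes lie right of 0.

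Genes of protein folding in the endoplasmic reticulum were higher: 17 of 20 lay above 0, with a median of 0.30, and 7 had an unadjusted p under 0.05, all higher. PDIA4, a protein disulfide isomerase, had log2 levels of 9.29, 9.53 and 9.27 in Day-3 dogs, against 8.66, 8.44 and 8.80 in Day-0 dogs (difference 0.73 ± 0.16, SE, unadjusted limma p 0.000353). CALR, the chaperone calreticulin, had 8.13, 8.45 and 8.28 in Day-3 dogs, against 8.03, 7.44 and 7.18 in Day-0 dogs. XBP1, a transcription factor of the unfolded protein response, had 9.05, 9.71 and 9.37 in Day-3 dogs, against 9.02, 8.85 and 8.99 in Day-0 dogs. The groups were clearly apart in PDIA4 and just apart in CALR and XBP1. SDF2L1 had the largest difference of the list, 1.52 ± 0.45 (SE), at levels near the lowest tested. The count of 7 was 3 without Day-0 dog 2 and 4 without Day-3 dog 2.

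The cytosolic and mitochondrial heat shock proteins were centred on 0, with 14 genes higher and 15 lower and a median of -0.01. Of these, BAG3, a co-chaperone of the Z-disc, was higher by 0.37 ± 0.14 (SE), while HSPA9, the mitochondrial chaperone mortalin, differed by -0.29 ± 0.13 (SE). The proteasome list had a median of 0.09, with 1 gene higher and 1 lower at an unadjusted p under 0.05. EIF3J, a translation initiation factor, had log2 levels of 9.94, 10.26 and 9.66 in Day-3 dogs, against 9.63, 9.15 and 9.50 in Day-0 dogs. In the list of ubiquitin ligases, autophagy and lysosome 15 of 23 genes lay above 0 and 8 below, with a median of 0.05. BNIP3, LAMP2 and ULK1 had an unadjusted p under 0.05, with differences of 0.48, 0.43 and 0.50. So 3 of the 23 were higher at this p and 0 lower, against 4.6% and 5.0% of all genes.

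Tubulins, the subunits of microtubules, were higher in 6 of 7 genes with a median of 0.50, and 4 had an unadjusted p under 0.05. TUBB2A had log2 levels of 10.93, 11.10 and 10.78 in Day-3 dogs, against 10.11, 10.60 and 10.53 in Day-0 dogs. TUBB6 had 8.03, 8.52 and 8.06 in Day-3 dogs, against 7.48, 7.60 and 7.66 in Day-0 dogs. TUBA1C had 10.07, 10.83 and 10.39 in Day-3 dogs, against 9.86, 9.75 and 9.83 in Day-0 dogs. In these and in TUBB, every Day-3 dog was above every Day-0 dog. Without Day-3 dog 2, 1 of the 7 had an unadjusted limma p under 0.05, with a median of 0.42, and without Day-0 dog 3 there were 2. Of 25 costamere and cytoskeleton genes 21 lay above 0, with a median of 0.17, among them JUP, plakoglobin, at 0.38 ± 0.17 (SE). The median was 0.06 without Day-0 dog 2, 0.09 without Day-3 dog 2 and 0.08 without Day-3 dog 3, with 16 or 17 of the 25 above 0. ITGA6, an integrin laminin receptor, differed by -0.46 ± 0.18 (SE).

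Sarcomere genes were centred near 0, with a median of -0.06 over 23 genes, and ACTA1 and TNNT1 at the 2 ends were the only ones with an unadjusted limma p under 0.05. Over the 6 left-out dogs the median ranged from -0.24 without Day-0 dog 1 to 0.10 without Day-3 dog 1. FHL1, a LIM-domain protein of the stretched sarcomere, had log2 levels of 11.64, 13.19 and 12.41 in Day-3 dogs, against 11.49, 11.31 and 11.67 in Day-0 dogs. Again Day-3 dog 2 was highest and dog 1 lay within the Day-0 range. CALM3, a calmodulin gene, had 9.49, 9.73 and 9.73 in Day-3 dogs, against 8.94, 9.09 and 8.97 in Day-0 dogs, a difference of 0.65 ± 0.14 (SE, unadjusted limma p 0.000434). KCNH2, the channel of the rapid delayed rectifier current, differed by -0.30 ± 0.14 (SE).

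**Figure D3:**
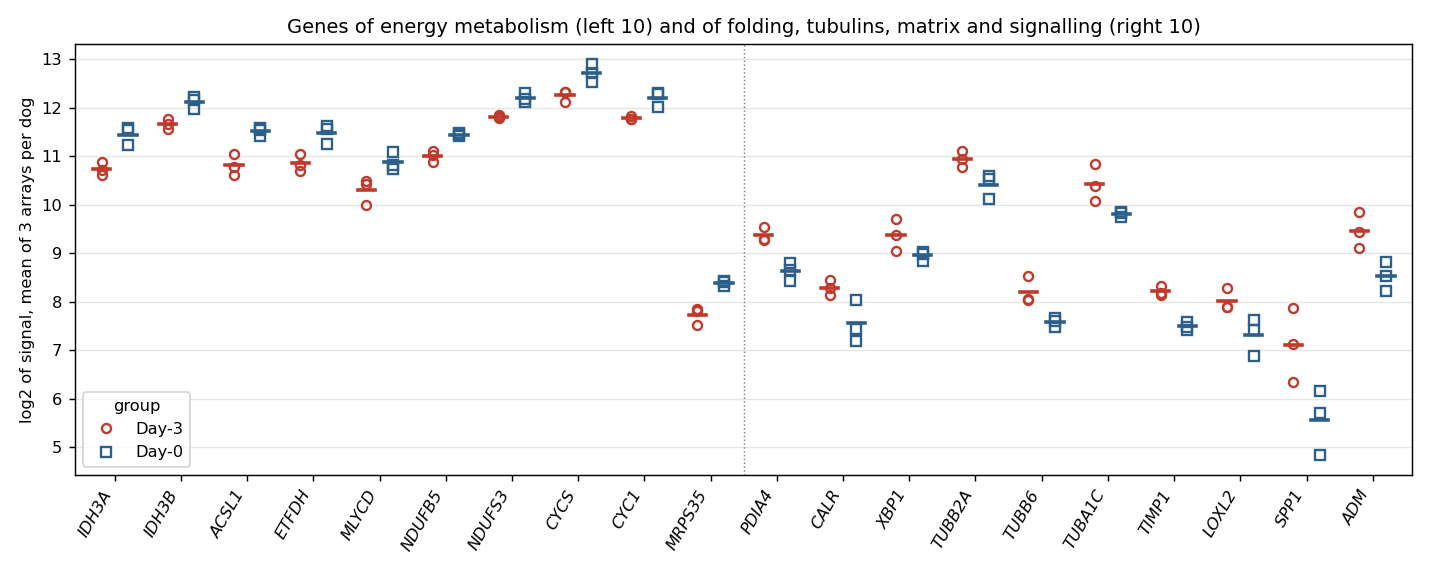
Log2 of signal (vertical axis) of 20 genes of the lists, with the 3 Day-3 dogs as circles, the 3 Day-0 dogs as squares and bars for the group means. The 10 genes of energy metabolism and mitochondrial ribosomes on the left lie lower in all Day-3 dogs, and the 10 genes on the right lie higher. The 20 genes were picked by hand, so their separation does not stand for their lists. In Complex I, 12 of 28 genes were lower without overlap. Among fibrillar collagen and matricellular genes, 7 of 27 were higher without overlap.

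The genes usually followed in heart failure are given as levels, without a test. Of 32 such genes 19 were tested. The groups did not overlap in 4 of them, RYR2, ACTA1, ADCY6 and TIMP1, against 14.4% of all genes tested. ATP2A2, the calcium pump SERCA of the sarcoplasmic reticulum, had log2 levels of 12.54, 12.84 and 12.97 in Day-3 dogs, against 12.54, 13.12 and 13.13 in Day-0 dogs. RYR2, the calcium release channel, had 10.92, 10.64 and 10.96 in Day-3 dogs, against 11.15, 11.30 and 11.55 in Day-0 dogs. SLC8A1, the sodium-calcium exchanger, had 7.70, 6.72 and 7.15 in Day-3 dogs, against 8.07, 7.38 and 7.52 in Day-0 dogs. In these probe sets, the brightest of each gene, the groups did not overlap in RYR2 and overlapped in ATP2A2 and SLC8A1. All 4 tested RYR2 probe sets lay below 0, the second brightest at -0.48. Of 9 tested ATP2A2 probe sets 7 lay below 0, and in 2 of them, at -0.35 and -0.62, all Day-3 dogs were below all Day-0 dogs. ADCY6, a cardiac adenylyl cyclase, had 8.09, 7.67 and 8.19 in Day-3 dogs, against 8.74, 8.34 and 8.60 in Day-0 dogs, also without overlap. ANKRD1, a load-responsive nuclear and sarcomere protein, had 10.86, 9.98 and 10.38 in Day-3 dogs, against 10.24, 10.26 and 10.95 in Day-0 dogs. GJA1, a connexin of the intercalated disc, had 9.10, 7.77 and 8.96 in Day-3 dogs, against 9.01, 8.85 and 9.39 in Day-0 dogs. The groups overlapped in both, and likewise in the potassium channel genes KCNIP2, KCND3 and KCNJ2 and the calcium channel gene CACNA1C, whose mean differences were between -0.05 and 0.00.

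Matrix genes were higher in most cases: 24 of 27 fibrillar collagen and matricellular genes lay above 0, with a median of 0.47, and 5 had an unadjusted p under 0.05, all higher. LOXL2, a collagen cross-linking enzyme, had log2 levels of 8.28, 7.90 and 7.90 in Day-3 dogs, against 7.43, 7.62 and 6.88 in Day-0 dogs (difference 0.71 ± 0.17, SE). SPP1, osteopontin, had 7.12, 7.87 and 6.35 in Day-3 dogs, against 6.15, 5.71 and 4.84 in Day-0 dogs (difference 1.55 ± 0.64, SE). TIMP1, an inhibitor of matrix metalloproteinases from another list, had 8.17, 8.15 and 8.33 in Day-3 dogs, against 7.48, 7.41 and 7.58 in Day-0 dogs (difference 0.73 ± 0.21, SE). The groups did not overlap in any of these 3, and in TIMP1 the dogs of each group were close together. The count of 5 was 3 without Day-3 dog 3 or without Day-0 dog 1, and the median was 0.30 without Day-3 dog 3. The list of TIMP1, matrix proteases and inhibitors, had no common direction, with 5 of 9 genes above 0 and a median of 0.08. TIMP1 was its only gene with an unadjusted limma p under 0.05.

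Among further matricellular genes, CCN2 varied widely between the Day-3 dogs and THBS1 less so. CCN2, connective tissue growth factor, had log2 levels of 8.95, 11.64 and 10.58 in Day-3 dogs, against 9.12, 9.03 and 9.37 in Day-0 dogs. Dogs 2 and 3 were above the Day-0 range and dog 1 was below it. THBS1, thrombospondin, had 8.60, 9.54 and 9.04 in Day-3 dogs, against 8.14, 8.79 and 8.34 in Day-0 dogs. Its groups overlapped, with a difference of 0.64 ± 0.23 (SE, unadjusted limma p 0.0128). Among the collagen genes, the groups did not overlap in COL6A1, with a difference of 0.35 ± 0.21 (SE). In COL1A1 and COL3A1 they overlapped. COL1A1 had 9.15, 8.50 and 10.23 in Day-3 dogs, against 8.26, 9.20 and 7.55 in Day-0 dogs. COL3A1 had 9.60, 8.67 and 10.50 in Day-3 dogs, against 8.96, 10.09 and 8.19 in Day-0 dogs. In both COL1A1 and COL3A1, Day-3 dog 3 was highest and dog 2 lowest of its group. The 7 fibroblast markers, which include these collagens, had a median difference of 0.24 (0.13 without Day-3 dog 3 and 0.49 without Day-3 dog 1) and 0 with an unadjusted limma p under 0.05. Their per-dog means relative to the Day-0 mean were 0.16, 0.11 and 0.77 in Day-3 dogs and -0.05, 0.31 and -0.26 in Day-0 dogs, and their part in the matrix values was not tested. In the TGF-beta and BMP list 5 of 11 genes were higher and 6 lower, with a median of -0.03.

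In the list of cytokines, chemokines and acute phase genes 6 of 10 lay above 0 and 4 below, with a median of 0.26 that ranged from 0.07 without Day-0 dog 1 to 0.44 without Day-0 dog 2. In the complement and coagulation list 16 of 19 lay above 0, with a median of 0.29, and 2 had an unadjusted p under 0.05, both higher. That count was 1 without Day-0 dog 1. CCL2, the monocyte chemoattractant, had log2 levels of 6.57, 7.11 and 6.66 in Day-3 dogs, against 6.26, 5.97 and 5.82 in Day-0 dogs (difference 0.76 ± 0.23, SE). CFI, complement factor I, had 7.87, 6.96 and 7.22 in Day-3 dogs, against 6.67, 6.36 and 5.84 in Day-0 dogs (difference 1.06 ± 0.25, SE, unadjusted limma p 0.000875). In both the groups did not overlap. Of 12 macrophage and monocyte markers 10 were higher, with a median of 0.42. TYROBP, C1QC and CD86 had an unadjusted p under 0.05, with differences of 0.43, 0.69 and 0.48. Per-dog means of the 12 markers, relative to the Day-0 mean, were 0.34, 0.00 and 0.69 in Day-3 dogs and 0.02, 0.22 and -0.23 in Day-0 dogs, so that Day-3 dog 2, which was highest for CCL2 and VCAM1, lay within the Day-0 range for these markers. Without Day-3 dog 1 or dog 3, or Day-0 dog 3, 0 of the 12 had an unadjusted limma p under 0.05, and the median was 0.26 without Day-3 dog 3. The interferon and antigen presentation list had a median of 0.08 (-0.07 without Day-3 dog 3) and 0 of 15 genes with an unadjusted limma p under 0.05.

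Stress-responsive genes gave a mixed picture. ADM, the vasodilator peptide adrenomedullin, had log2 levels of 9.11, 9.84 and 9.44 in Day-3 dogs, against 8.82, 8.54 and 8.22 in Day-0 dogs (difference 0.94 ± 0.27, SE). In the list of hypoxia-induced genes 4 of 15 were higher and 2 lower at an unadjusted p under 0.05: ADM, BNIP3 and KDM3A, a histone demethylase, were among the higher and PGK1 among the lower. Without Day-3 dog 2, or dog 3, 2 were higher and 1 lower, and without Day-0 dog 1, or dog 3, 1 was lower. MT2A, a metallothionein, had 7.82, 9.47 and 9.68 in Day-3 dogs, against 7.51, 7.36 and 7.92 in Day-0 dogs, and FKBP5, a glucocorticoid-induced immunophilin, was higher by 0.72 ± 0.33 (SE). The 11 glucocorticoid-induced genes had a median of -0.01, which was 0.20 without Day-3 dog 1 and -0.24 without Day-3 dog 2. Among 5 clock genes, NFIL3 was higher as above and ARNTL, the activator BMAL, higher by 0.78 ± 0.33 (SE). NR1D2, a repressor of the clock, had 6.44, 6.22 and 6.39 in Day-3 dogs, against 6.996, 6.96 and 6.91 in Day-0 dogs (difference -0.60 ± 0.14, SE, unadjusted limma p 0.000613). The hour at which tissue was taken is not given in the labels used here, and its part in the clock genes was not tested.

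Set against longer pacing, few genes stood out at Day-3. For Day-3 minus the mean of Week-1, Week-2 and End-stage, 0 probe sets had an adjusted limma p under 0.05, with a smallest adjusted p of 0.0717. At an unadjusted p under 0.05, 355 were higher at Day-3 (2.48%) and 370 lower (2.59%), 5.07% in all. MYL1 was highest at Day-3: its group means were 4.73 at Day-0, 8.35 at Day-3, 6.07 at Week-1, 5.71 at Week-2 and 5.00 at End-stage. LOC607080 had means of 6.62, 8.86, 6.91, 6.86 and 5.90 in the same order, and every Day-3 dog but dog 1 was above all dogs of the later groups. ACTA1 (1605145_at) was lowest at Day-3, with means of 9.86, 7.60, 8.51, 8.34 and 8.66 in that order. ETFRF1 was also lowest there, with 9.89, 8.74, 9.38, 9.26 and 9.41. MYL1, LOC607080, ACTA1 and ETFRF1 were named for large Day-3 minus Day-0 differences, and the same Day-3 dogs enter both comparisons. That choice favours an extreme place for Day-3, so their place is no separate support. The other ACTA1 probe sets are not given here for the later groups.

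Other genes higher at Day-3 than in later pacing were SLC40A1, the iron exporter ferroportin, by 0.61 ± 0.16 (SE), KLHL41, a Kelch protein of striated muscle, by 0.70 ± 0.18, ASPH, an aspartyl hydroxylase, by 0.68 ± 0.14, and RNF10, ALAD and DNAJC17. ACAT1 had means of 11.25 at Day-0, 10.68 at Day-3, 11.22 at Week-1, 10.97 at Week-2 and 11.33 at End-stage, so it was lower at Day-3 than in both the unpaced and the longer paced dogs. HDAC6, a cytoplasmic deacetylase of tubulin, had 8.31, 8.23 and 8.23 in Day-3 dogs, against 8.52 to 8.90 in the later paced dogs. MAP7D1 and LOC474850 differed by -0.51 and -0.74 from the later groups.

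CLGN and DKK3 were lower at Day-3 than in longer pacing and had their highest means at Week-2. CLGN, a chaperone of the endoplasmic reticulum, had means of 5.54 at Day-0, 6.21 at Day-3, 7.21 at Week-1, 7.64 at Week-2 and 7.05 at End-stage. DKK3, a secreted protein of the Dickkopf family, had 7.18 at Day-0, 7.04 at Day-3, 7.93 at Week-1, 9.01 at Week-2 and 7.74 at End-stage, and its second probe set differed by -0.81 from the later groups. THBS1 likewise had its highest mean, 10.20, at Week-2. The mean of the Complex I genes relative to Day-0 was -0.28 at Day-3, -0.28 at Week-1, -0.28 at Week-2 and -0.24 at End-stage, and for Day-3 against later pacing 0 of the 28 genes had an unadjusted limma p under 0.05, against 5.49% of all genes (2.86% higher and 2.63% lower). Tubulins were at 0.35, 0.52, 0.45 and 0.35 in the same order, and the folding list at 0.36, 0.43, 0.52 and 0.47. All these means share the Day-0 dogs as their base.

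**Figure D4:**
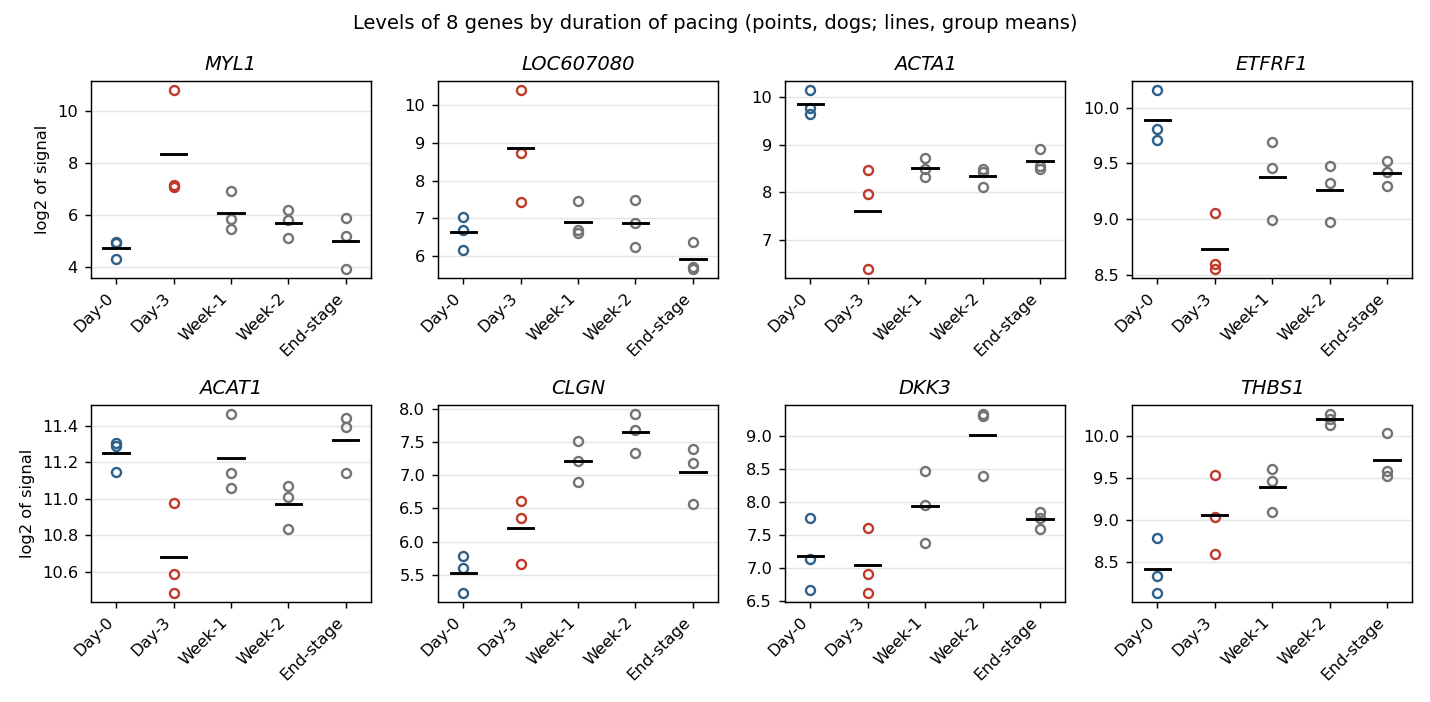
Log2 of signal (vertical axes, each with its own range) of 8 genes in the 5 groups by duration of pacing, with points for dogs and lines for group means. MYL1 and LOC607080 are highest and ACTA1, ETFRF1 and ACAT1 lowest at Day-3, while CLGN, DKK3 and THBS1 are highest at Week-2. All 8 genes were picked by differences that involve the Day-3 dogs.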

How the data were processed

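RNA of 15 dogs was measured on 45 Affymetrix canine arrays. The authors deposited linear signal intensity per probe set, made with GCOS 1.4 and MAS5 per the submitters' processing notes; the trimmed mean was about the same on all arrays (150.02 to 150.026), so each had been scaled. Control probe sets (77) were left out, each dog was given the mean log2 signal of its 3 arrays, and the 40% with the lowest means (signal under 22.8) were removed, which left 14301. limma 3.58.1 (R 4.3.3, lmFit and eBayes with an intensity trend) was fitted to all 15 dogs with 1 mean per group; p-values are two-sided, Benjamini-Hochberg adjusted over all probe sets, and measure the spread between dogs. The script was tested on simulated data. Precision is limited by how many arrays and dogs there are.

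Gene names came from the 2016 platform annotation: 7674 of those tested carried 1 symbol, 100 several and 6527 none. No detection calls were used. Named genes are the 12 with the largest differences each way among probe sets with 1 symbol, dogs that do not overlap and an unadjusted p under 0.01; up to 4 members of each of 51 lists with the smallest p; heart failure genes; up to 8 each way against later pacing; and up to 2 unnamed probe sets each way. All lists, of which 49 had tested genes, were written with earlier results of these data known. LPL and the skeletal muscle genes were picked after their values were seen.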

Additional observations from a re-analysis of the deposited data

How the results depend on the processing

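With 3 dogs a group, only differences well beyond the typical 95% half-width of 0.468 could pass adjustment, and dim probe sets are the least certain. Under 22 alternatives the sign held for the 110 named probe sets chosen at an unadjusted p under 0.05 (Day-3 against Day-0) and the 16 set against later pacing. These were chosen by p in the same arrays that the alternatives reuse. A held sign was therefore likely from the start and is no separate support. Of 18 other probe sets given as levels, 10 took the other sign in at least 1, among them MYH7 (0.06 without Day-3 dog 1) and ANKRD1 (0.15 at most). In all, 15 of 49 list medians moved by more than the spread between dogs in at least 1. Past the adjusted limma threshold against Day-0, there were 102 higher and 171 lower with all 45 arrays and the dog as a random block, 1 higher (MYL1) without RNA isolation 2, and 1 lower (ETFRF1) with the median of isolations. Leaving out 1 dog gave 0 to 10 higher and 0 to 13 lower: 10 and 13 without Day-3 dog 1, 2 lower without Day-3 dog 2 and 1 lower without Day-0 dog 2. Unadjusted higher counts were 342 with median centring and 822 with no filter. Unadjusted lower counts were 394 to 785 over the left-out dogs, lowest without Day-3 dog 2. Counts without overlap were 570 higher with median centring, 1471 higher with no filter, and, with 1 dog fewer, 1389 to 2022 higher and 1370 to 2021 lower, since fewer dogs overlap less. Against later pacing, all 45 arrays gave 18 higher and 32 lower past the threshold and 579 lower unadjusted, leaving out isolation 2 gave 1 and 1, the median of isolations 1 lower, quantile normalization 2 lower, and left-out dogs 0 to 1 higher and 0 to 2 lower. There, unadjusted higher counts were 167 with median centring and 552 with no filter. The cause of these shifts was not tested. In 1 alternative, Week-1 dog 1 and End-stage dog 1 were left out for arrays that match. Not all of their arrays were identical, since their dog means differed, for example 8.89 and 8.46 for MYH11. How many match is not given here. The main fit kept both dogs. Without them, 494 probe sets were higher and 588 lower than Day-0 at an unadjusted limma p under 0.05. Against later pacing these counts were 436 and 406, and 0 passed after adjustment in either comparison.

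The labels do not say that dog numbers pair the samples. Over probe sets, deviations of same-numbered Day-3 and Day-0 dogs correlated at 0.03, 0.13 and -0.08, and not every dog correlated best with its own number, although cardiomyocyte markers were mostly lowest in dog 1 of each group. Whether a number marks a shared batch was not tested. The replicate block on 15 dogs gave 0 adjusted calls (smallest adjusted p 0.0634) and 693 higher and 811 lower unadjusted; in 6 dogs, 517 and 608. With it, 19 of 28 Complex I genes had an unadjusted limma p under 0.05, against 12 without it and 6 to 16 with 1 dog left out. Lower counts with and without the block were 10 and 5 in complexes II, III and IV, 14 and 9 in the citric acid cycle list, 4 and 0 in ATP synthase and 5 and 2 in glycolysis, and higher counts were 5 and 2 in the costamere list.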

Other observations

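Leaving out Day-3 dog 1, 23 probe sets passed the adjusted threshold, and 11 of them carried 1 symbol, for 10 genes. ACTA1 (difference -2.69), ANK1 (-1.74), ETFRF1 (-1.31), TIMM8A (-0.73), an import chaperone of mitochondria, and both probe sets of PTGDS (-1.80 and -2.16), a prostaglandin D synthase, were lower in the other Day-3 dogs. LOC607080 (2.95), RDX (1.00), a membrane-cytoskeleton linker, HMGB2 (1.00), a chromatin protein, APOBEC2 (0.87), a striated muscle deaminase, and DNAJC10 (0.72), a disulfide reductase of the endoplasmic reticulum, were higher. This fit was chosen for description after the values were seen, as the one with the most calls of the 6 that leave out a dog. Among the 1154 probe sets with an unadjusted limma p under 0.05, the Day-3 dog nearest to the Day-0 mean was dog 1 in 555 and dog 3 in 410. Over all tested probe sets the median distance from the Day-0 mean was 0.214 for dog 1, 0.264 for dog 2 and 0.209 for dog 3.

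Probe sets without a gene symbol were among the largest differences. Probe set 1605157_at had log2 levels of 6.17, 2.75 and 4.53 in Day-3 dogs, against 7.66, 7.70 and 7.27 in Day-0 dogs (difference -3.06 ± 0.59, SE, adjusted limma p 0.217). Probe set 1605032_at had 5.36, 2.63 and 4.95 in Day-3 dogs, against 5.90, 6.46 and 7.03 in Day-0 dogs. Both were lowest in Day-3 dog 2, as ACTA1 was. Probe sets 1592278_at and 1589964_at were higher in all Day-3 dogs, by 1.81 ± 0.43 and 1.52 ± 0.27 (SE). ADIPOQ, the fat cell hormone adiponectin, had 4.99, 3.92 and 8.15 in Day-3 dogs, against 6.08, 4.05 and 4.42 in Day-0 dogs, so Day-3 dog 3 alone was high, and without it the difference was -0.39.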
